A study of Mus musculus with 6 samples.

Results

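Genes whose products detect foreign or misplaced nucleic acid in a cell, or pass that signal on, were followed in mouse leukaemia cells treated with panobinostat. The 10 genes were chosen by name and comprised Cgas, Sting1, Rigi, Ifih1, Dhx58, Mavs, Tbk1, Ikbke, Tlr7 and Myd88. All 10 were found among the 27179 genes of the count table. Rigi is listed in the annotation under its older symbol Ddx58.

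The cells were C57BL/6 leukaemia cells of the line A/E9a;NRASG12D;Ifnar1-/-, which carries the A/E9a form of the AML1-ETO fusion, a mutant NRAS and a knockout of Ifnar1, a chain of the type I interferon receptor. Both groups carry all of these alleles and differ by treatment, which was panobinostat, an inhibitor of histone deacetylases, or vehicle for 3 days. Cells positive for green fluorescent protein were sorted from spleen with a viability dye, and 3 libraries were sequenced per group. There was no group with an intact receptor, the leukaemia is named as 1 line, and the labels do not name the animals behind the libraries. The p-values therefore measure the spread between these libraries, which may be technical.

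Cyclic GMP-AMP synthase, encoded by Cgas, binds DNA in the cytosol and makes a second messenger that activates the membrane adaptor STING. RIG-I and MDA5, encoded by Rigi and Ifih1, bind double-stranded viral RNA and signal through the mitochondrial adaptor MAVS, while LGP2, encoded by Dhx58, modulates them. Both arms use the kinases TBK1 and IKK-epsilon, which phosphorylate interferon regulatory factors, whereas TLR7 senses single-stranded RNA in endosomes and signals through MyD88. Several of these genes are themselves induced by interferon in cells that have its receptor.

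Among the 7 members with an entry in the RefSeq promoter table (Cgas, Rigi, Ifih1, Mavs, Tbk1, Ikbke and Myd88), 3 held the core of an interferon-stimulated response element. The core searched was GAAA, any 2 bases and GAAA again, on both strands, in a window from 250 bases before to 50 bases after the annotated start. Of all 32851 such windows, 3.44% held it. These sites are shown because the 3 genes are interferon-inducible in other cells and the cells here are labelled as lacking a chain of the receptor. Each sequence reads 5′ to 3′ on the gene's strand, all 3 genes lie on the minus strand of GRCm38, and capitals mark the match.
Rigi: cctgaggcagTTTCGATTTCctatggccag
Ifih1: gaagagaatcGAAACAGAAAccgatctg
Myd88: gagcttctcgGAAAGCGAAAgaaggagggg
The Rigi stretch lies at chr4:40239804-40239833, with the core on the opposite strand at bases 3 to 12 counted from 1 at the start site. The Ifih1 stretch lies at chr2:62646206-62646233, with the core at bases 33 to 42. The Myd88 stretch lies at chr9:119340039-119340068, with the core at bases -40 to -31, before the start. The core of a gamma-activated site, TTCNNNGAA, which is its own reverse complement, was found in 1 of the 7 windows, that of Myd88 at bases -46 to -38, and overlaps the other core there. It was present in 8.30% of all windows. A match describes these letters and is not a measured binding site.

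Panobinostat and vehicle libraries did not differ in any of the 10 genes past the threshold. In edgeR's quasi-likelihood test over 13207 genes, with an adjusted p under 0.05 as the threshold, 0 members were called higher and 0 lower, where 0% of all genes were called in either direction. No member had an unadjusted p under 0.05 with all 6 libraries, beside 6 without vehicle library 1 (Cgas, Rigi, Ifih1, Dhx58, Mavs and Myd88), a setting in which 2716 of 13369 genes did. With all libraries limma-voom called 0 genes at all. DESeq2 called 0 of the 10, where it called 0.0681% of all genes (0.053% higher and 0.0151% lower). Over all genes 301, or 2.28%, had an unadjusted p under 0.05 in edgeR. The estimates of 6 members were above 0 and those of 4 below, with a median absolute log2 fold change of 0.23, beside 0.13 for all genes tested.

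Where 3 values are given for a group, they are those of its libraries 1, 2 and 3. Depth was even, at 31989622 to 35962605 counts per library. Vehicle library 1 stood apart from its group: 18.4% of tested genes were at least 1.5-fold over the mean of vehicle libraries 2 and 3 in it, and 10.7% at least 1.5-fold under. Without it edgeR called 324 genes, and without any 1 of the other libraries 0. Ifnar1 was counted in each library, at 35.7 to 48.0 reads per 1e6 counts of the library (CPM). Reads from outside the deleted part do not check the knockout. Ptprc, which encodes the leucocyte antigen CD45, was low, at 11.7, 11.8 and 10.8 CPM with vehicle, against 1.31, 3.48 and 9.19 CPM with panobinostat, while Gata2, a factor of progenitors and mast cells, was at 648 to 1112 CPM. Summed markers of red cells ran from 2278 CPM in panobinostat library 1 to 22457 CPM in vehicle library 1, and those of neutrophils from 0.778 to 5.76 CPM.

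**Figure D1:**
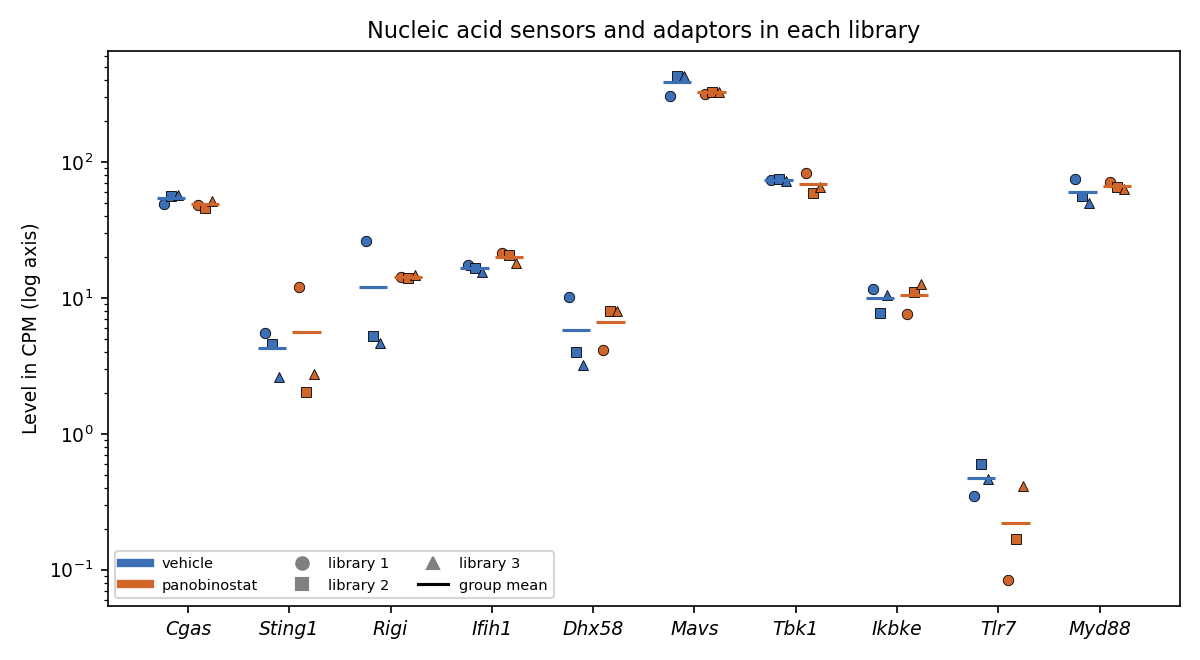
Level of each gene in CPM (log axis) in the 3 vehicle (blue) and 3 panobinostat (orange) libraries; symbols give the library number and short lines the group means. Mavs lies above 300 CPM in each library and Tlr7 below 1 CPM, and the groups of all genes but Ifih1 overlap.

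Levels of the members spanned a wide range. Divided by exon length, as CPM per kilobase, the order over the 6 libraries was Mavs (mean 115.3), Myd88 (32.3), Tbk1 (23.6), Cgas (12.6), Rigi (3.40), Ifih1 (3.35), Ikbke (3.08), Dhx58 (2.59), Sting1 (2.15) and Tlr7 (0.0875). The median of the 11699 tested genes with a known length was 10.98 CPM per kilobase on the same scale. Mavs lay above 95.8% of those genes and Tlr7 above 1.58%. The ranges of Myd88 and Tbk1 over the libraries overlapped, and so did those of each neighbouring pair from Rigi down to Sting1, so the order within those runs is not settled. The adaptors Mavs and Myd88 and the kinase Tbk1 were thus high, while the adaptor Sting1, the kinase Ikbke and the RNA sensors were below the median and Cgas was near it.

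Cgas (Entrez gene 214763, chromosome 9, 78430518 to 78443237, GRCm38) varied little. It gave 49.4, 56.6 and 57.5 CPM with vehicle, against 48.5, 46.2 and 51.2 CPM with panobinostat. The highest panobinostat library lay above the lowest vehicle library, so the groups overlapped, although vehicle libraries 2 and 3 lay above all of the panobinostat libraries. The log2 fold change was -0.16 (SE 0.10, 95% interval -0.41 to 0.08, edgeR adjusted p 0.998). A pseudogene on the opposite strand, Gm8093, shares 201 exon bases with Cgas, and without a stated strand setting its reads cannot be told apart.

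Sting1 (gene 72512, chromosome 18, 35733678 to 35740554), the adaptor downstream of Cgas, was set apart by 1 library. Its level was 5.56, 4.59 and 2.64 CPM with vehicle, against 12.1, 2.02 and 2.76 CPM with panobinostat. Panobinostat library 1 was the highest of the 6, and panobinostat library 2 the lowest. The log2 fold change of 0.40 (SE 0.72, 95% interval -1.35 to 2.16, edgeR adjusted p 0.998) became -0.83 without panobinostat library 1. That library was also the one with the highest level of mast cell and basophil markers. The summed level of 10 marker genes was 1776, 1608 and 1511 CPM with vehicle, against 3538, 1788 and 1725 CPM with panobinostat, with 9 of 9 tested markers estimated higher with panobinostat, 0 called and none of the 10 at 0 in all libraries. All of these markers but Fcer1a were highest in panobinostat library 1. The sums of panobinostat libraries 2 and 3 lay near those of vehicle, so the shared direction is mostly that of 1 library. The part of these markers in the Sting1 level was not tested.

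The RIG-I-like receptors differed more between vehicle libraries than between treatments, apart from Ifih1. Rigi (gene 230073, chromosome 4, 40203777 to 40239825) gave 26.1, 5.25 and 4.67 CPM with vehicle, against 14.1, 14.1 and 14.7 CPM with panobinostat. The panobinostat libraries were close to each other and lay between vehicle library 1 above and vehicle libraries 2 and 3 below. The group means were 12.0 ± 12.2 and 14.3 ± 0.334 CPM (SD, n = 3), and the log2 fold change was 0.26 (SE 0.67, 95% interval -1.37 to 1.89, edgeR adjusted p 0.998). Without vehicle library 1 it was 1.52 (SE 0.15) with an edgeR adjusted p of 0.0252, and it was -0.099 without vehicle library 2 and -0.13 without vehicle library 3. Over the settings tried, its adjusted p ran from 0.00415, without both libraries numbered 1, to 1. Its call thus rested on leaving out 1 vehicle library.

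Dhx58 (gene 80861, chromosome 11, 100694884 to 100704271) had the same high library. It gave 10.2, 3.99 and 3.19 CPM with vehicle, against 4.17, 7.98 and 7.94 CPM with panobinostat. Vehicle library 1 was highest, and panobinostat library 1 lay near vehicle libraries 2 and 3 rather than near the other panobinostat libraries. The log2 fold change was 0.21 (SE 0.51, 95% interval -1.02 to 1.45, edgeR adjusted p 0.998), 0.89 without vehicle library 1 (adjusted p 0.237), and between -0.077 (without vehicle library 3) and 0.46 (without panobinostat library 1) without any 1 of the others. Without both libraries numbered 1 it was 1.14 (SE 0.21, edgeR adjusted p 0.0204). An antisense transcript, Dhx58os, shares 141 exon bases, or 5.85% of the exons of Dhx58.

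Megakaryocyte markers stood in a similar order to Dhx58. The summed level of 10 of them was 260.1, 62.3 and 65.2 CPM with vehicle, against 79.6, 146 and 173 CPM with panobinostat, with 2 of 6 tested markers estimated higher, 0 called and none at 0 in all libraries. Whether they bear on the Rigi and Dhx58 levels was not tested.

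Ifih1 (gene 71586, chromosome 2, 62595618 to 62646255) was the 1 member whose groups did not overlap. It gave 17.5, 16.6 and 15.5 CPM with vehicle, against 21.3, 20.8 and 18.1 CPM with panobinostat. Every panobinostat library lay above every vehicle library, by a narrow gap between vehicle library 1 and panobinostat library 3. The means were 16.5 ± 0.990 and 20.1 ± 1.73 CPM (SD, n = 3), a log2 fold change of 0.28 (SE 0.13, 95% interval -0.02 to 0.59), with an unadjusted p of 0.0657 and an adjusted p of 0.998 in edgeR. The groups of 7.43% of all genes tested were apart, 3.8% in this direction and 3.63% in the other, so 1 of 10 members is not a result about the members. Leaving out each library in turn moved the log2 fold change between 0.24 and 0.35.

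**Figure D2:**
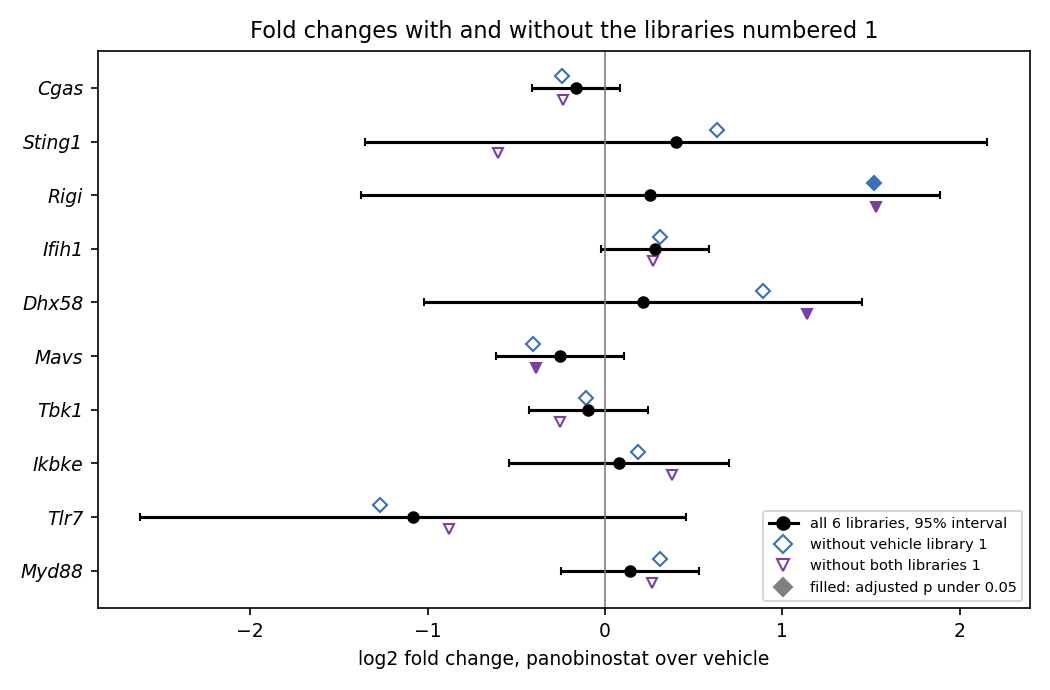
Log2 fold change of panobinostat over vehicle for each gene with all 6 libraries (black, 95% interval), without vehicle library 1 (diamonds) and without both libraries numbered 1 (triangles); filled coloured symbols passed an adjusted p of 0.05. Each black interval includes 0, and Rigi at 1.52 is filled without vehicle library 1.

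Mavs (gene 228607, chromosome 2, 131234063 to 131248025), the adaptor below RIG-I and MDA5, had the highest level of the 10. It gave 308, 427 and 429 CPM with vehicle, against 318, 330 and 329 CPM with panobinostat. Vehicle library 1 was the lowest of all and lay beside the panobinostat libraries, while vehicle libraries 2 and 3 were higher. The means were 388 ± 69.5 and 326 ± 6.46 CPM (SD, n = 3), and the log2 fold change was -0.25 (SE 0.15, 95% interval -0.62 to 0.11, edgeR adjusted p 0.998). Without vehicle library 1 it was -0.41 with an edgeR adjusted p of 0.0678, and without both libraries numbered 1 it was -0.39 with 0.0299.

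The kinases showed no shift beyond their spread. Tbk1 (gene 56480, chromosome 10, 121546455 to 121586794) gave 73.2, 75.3 and 72.3 CPM with vehicle, against 82.4, 58.8 and 65.8 CPM with panobinostat. The vehicle libraries were nearly level, with panobinostat library 1 above them and panobinostat libraries 2 and 3 below. The log2 fold change was -0.09 (SE 0.14, 95% interval -0.43 to 0.24, edgeR adjusted p 0.998). Ikbke (gene 56489, chromosome 1, 131254600 to 131279601), the inducible relative of Tbk1, gave 11.5, 7.74 and 10.4 CPM with vehicle, against 7.56, 11.1 and 12.7 CPM with panobinostat. Its groups overlapped along their whole length, with the lowest and the highest library both from panobinostat. Its log2 fold change was 0.08 (SE 0.26, 95% interval -0.54 to 0.70, edgeR adjusted p 0.998). The predicted antisense genes Gm28914 and Gm28913 share 40 and 20 exon bases with it.

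Tlr7 (gene 170743, chromosome X, 167303380 to 167330574) was near the limit of detection. Its reads numbered 11, 21 and 16 in vehicle and 3, 6 and 14 in panobinostat libraries 1, 2 and 3, which is 0.347, 0.602 and 0.464 and then 0.0834, 0.169 and 0.415 CPM. A gene without reads could still be at up to 3 counts, or 0.0834 to 0.0947 CPM, so panobinostat library 1 lay at that floor (exact Poisson 95% interval 0.0172 to 0.244 CPM, counting error only). Panobinostat library 3 overlapped the vehicle libraries. The log2 fold change was -1.08 (SE 0.64, 95% interval -2.62 to 0.46, edgeR adjusted p 0.998), and it was -1.88 without panobinostat library 3 and -0.69 without panobinostat library 1. The gene reached the minimum count in 3 vehicle libraries and 1 panobinostat library, so its being tested depended mainly on the group in which it was higher.

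B cell and T cell markers were estimated lower with panobinostat, as was Tlr7, a receptor that B cells also express. The cells had been sorted for green fluorescent protein, and the purity of that sort was not tested here. The summed level over the 10 B cell genes was 55.4, 122 and 81.9 CPM with vehicle, against 9.81, 24.4 and 66.5 CPM with panobinostat, with 10 of 10 estimated lower and 0 called. T cell markers summed to 13.6, 14.7 and 10.2 and then 2.167, 6.04 and 12.5 CPM, with 0 of 10 tested markers estimated higher and 0 called. Monocyte and macrophage markers summed to 31.6, 22.05 and 26.1 and then 15.0, 18.6 and 37.1 CPM, with 4 of 11 estimated higher and 0 called. Markers of plasmacytoid dendritic cells, which sense RNA through TLR7, summed to 71.5, 61.0 and 52.3 and then 58.1, 63.6 and 70.8 CPM, with 2 of 6 tested markers estimated higher and 0 called. In that list Bst2, which many cells express, was at 26.6 to 45.8 CPM, while Siglech, a defining marker, was at most 0.174 CPM and at 0 in vehicle library 2 and panobinostat library 1. None of these lists had a member at 0 in all libraries. Their part in the Tlr7 level was not tested, and in such bulk samples fewer cells of a type and less RNA per cell cannot be told apart.

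Myd88 (gene 17874, chromosome 9, 119335934 to 119340018), the adaptor of TLR7 and of most other Toll-like receptors, was abundant although Tlr7 was not. It gave 74.6, 56.2 and 50.3 CPM with vehicle, against 70.8, 64.9 and 63.6 CPM with panobinostat. Vehicle library 1 was the highest and the other vehicle libraries were the lowest, so the panobinostat libraries lay inside the vehicle range. The log2 fold change was 0.14 (SE 0.16, 95% interval -0.25 to 0.53, edgeR adjusted p 0.998), and it ran from 0.025 without vehicle library 3 to 0.31 without vehicle library 1 (adjusted p 0.161).

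**Figure D3:**
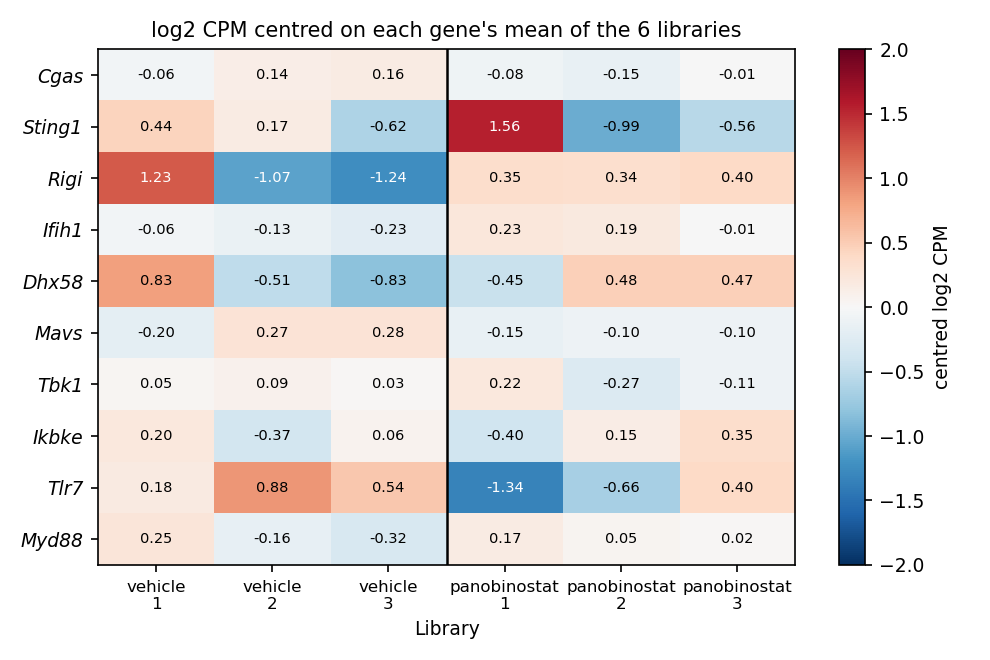
Log2 CPM of each gene in each library minus that gene's mean over the 6 libraries (colour and printed value; rows are genes, columns libraries). Rigi and Dhx58 stand at 1.23 and 0.83 in vehicle library 1, Sting1 at 1.56 and Tlr7 at -1.34 in panobinostat library 1.

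The highest library was at least 2-fold over the lowest for 4 of the 10 genes, Sting1, Rigi, Dhx58 and Tlr7. Tlr7 had 3 to 21 reads per library, so counting error adds to its fold. That rule took 31.2% of all genes tested. Vehicle library 1 was at least 2-fold over the mean of vehicle libraries 2 and 3 for 2 members, Rigi at 5.26-fold and Dhx58 at 2.83-fold, where 11.4% of all genes were. The median within-group SD of log2 CPM was 0.295 in vehicle and 0.188 in panobinostat for the members, beside 0.239 and 0.169 for all genes tested. Leaving out vehicle library 1 gave 1 of 10 members called, Rigi, where 2.42% of all genes were called, 2% higher and 0.419% lower. Leaving out both libraries numbered 1 gave 3 of 10, with Rigi and Dhx58 higher and Mavs lower, where 12% of all genes were called, 7.36% higher and 4.65% lower. No other same-numbered libraries were left out together, and this setting removes the vehicle library that stood apart in these data. No test was made of whether the members differ from other genes in these counts.

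Genes with the most similar pattern over the 6 libraries were found by the root mean square difference of centred log2 CPM among 11746 other genes. Rigi was closest to Tle2 (0.077) and Tubb2b (0.10), and Dhx58 to Phlda3 (0.065) and Ptp4a3 (0.073). Tle2 gave 16.95, 2.87 and 2.64 CPM with vehicle, against 8.70, 8.20 and 8.68 CPM with panobinostat, so that its panobinostat libraries, like those of Rigi, lay between vehicle library 1 and vehicle libraries 2 and 3. The nearest genes of Sting1 were less close, with 0.29 for Gstm5 and 0.30 for Cd53, both also highest in panobinostat library 1. Such differences can grow with a gene's own variation, whose root mean square was 0.85 for Sting1, 0.88 for Rigi and 0.11 for Cgas. Mavs was closest to Ndufv1 and Cdk8, Myd88 to Grk2 and Ube2q1, Cgas to Usp16 and Tmem59, Ifih1 to Zkscan17 and Ppp1r13l, Tbk1 to Prpf39 and Zfp260, and Ikbke to Jmy and Zfp874b, with differences of 0.021 to 0.084.

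Other genes of the pathway gave 0 calls among 85 tested of 117 listed, with a median log2 fold change of 0.02, beside 0.00 for all genes tested. Unadjusted p-values under 0.05 were found for 3 of the 85. The DNA-sensing list had 25 tested genes, 17 estimated higher and 8 lower. Its smallest p belonged to Zdhhc1, a palmitoyltransferase that binds STING, at 6.54, 5.48 and 7.60 CPM with vehicle, against 12.2, 8.79 and 8.27 CPM with panobinostat. These groups did not overlap, and the log2 fold change was 0.58 (SE 0.23, edgeR adjusted p 0.998). Ifi203 stood at 3.25 ± 0.796 CPM in vehicle and 1.32 ± 0.877 CPM in panobinostat libraries, and Ifi204 at 1.32 ± 0.673 and 0.812 ± 0.233 CPM (SD, n = 3). Both belong to the interferon-inducible p200 family, and the groups of Ifi204 overlapped while those of Ifi203 did not.

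The RNA-sensing list had 18 tested genes, 12 estimated higher and 6 lower and 0 with an unadjusted p under 0.05 in edgeR. Rnf135, the ubiquitin ligase Riplet that activates RIG-I, stood at 9.10 ± 0.618 CPM in vehicle and 10.6 ± 0.861 CPM in panobinostat libraries (SD, n = 3), without overlap of the groups. Eif2ak2, the double-stranded RNA kinase PKR, stood at 37.7 ± 1.80 and 42.0 ± 4.39 CPM, and Trim25, another ligase of this pathway, at 107.8 ± 10.6 and 118.7 ± 8.56 CPM (SD, n = 3), both with overlap. Nlrx1, a mitochondrial protein that restrains MAVS, was named after its values were seen. It gave 30.02, 11.1 and 10.4 CPM with vehicle, against 22.9, 19.3 and 20.2 CPM with panobinostat, the same order of groups as Rigi. Its log2 fold change was 0.28 (edgeR adjusted p 0.998), and 0.94 with an adjusted p of 0.0351 without vehicle library 1.

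The Toll-like receptor list had 16 tested genes, 5 estimated higher and 11 lower. Among the other receptors for nucleic acid, Tlr3, Tlr8 and Tlr13 were too low to be tested. Tlr9, the receptor for unmethylated CpG DNA, gave 0.442, 1.09 and 0.580 CPM with vehicle, against 0.111, 0.365 and 0.267 CPM with panobinostat. The groups did not overlap, and the log2 fold change was -1.50 (SE 0.59, edgeR adjusted p 0.998). Like Tlr7 it reached the minimum count in 3 vehicle libraries and 1 panobinostat library, and B cells express it. Tlr1 stood at 1.04 ± 0.239 and 0.503 ± 0.414 CPM, and Cnpy3, a chaperone of these receptors, at 38.3 ± 1.21 and 41.9 ± 3.42 CPM (SD, n = 3), both with overlapping groups.

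**Figure D4:**
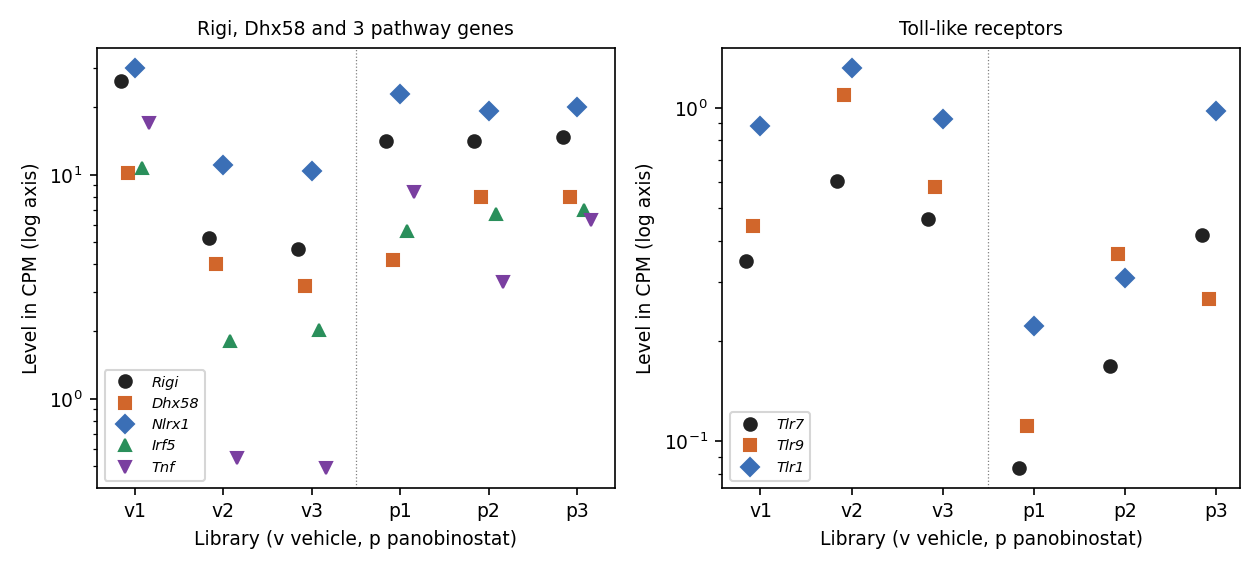
Level in CPM (log axis) of single genes in vehicle (v1 to v3) and panobinostat (p1 to p3) libraries, for Rigi, Dhx58 and 3 pathway genes (left) and for Tlr7, Tlr9 and Tlr1 (right), chosen after their values were seen. On the left vehicle library 1 lies above vehicle libraries 2 and 3 for each gene, and on the right panobinostat library 1 is lowest for each gene.

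Scaffolds of the kinase complex and its transcription factors had 16 tested genes, 9 estimated higher and 7 lower. Azi2, a scaffold of TBK1, gave 110.4, 107.9 and 111.6 CPM with vehicle, against 93.5, 95.6 and 99.4 CPM with panobinostat. The vehicle libraries all lay above the panobinostat libraries, with a log2 fold change of -0.19 (SE 0.08, edgeR adjusted p 0.998). Traf3, a ubiquitin ligase that recruits TBK1, stood at 89.1 ± 13.4 and 120.5 ± 34.7 CPM, and Tank, a partner of Traf3, at 46.2 ± 3.63 and 40.6 ± 7.03 CPM (SD, n = 3), with overlap in both. Irf5, a factor activated below TLR7 and named after its values were seen, gave 10.7, 1.81 and 2.03 CPM with vehicle, against 5.59, 6.66 and 6.94 CPM with panobinostat, again with vehicle library 1 highest. Its log2 fold change was 0.40 (edgeR adjusted p 0.998), and 1.72 with an adjusted p of 0.0335 without vehicle library 1.

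Interferon transcripts were at or near 0, while targets of the pathway ranged widely. Of 20 interferon genes, 11 had 0 counts in all 6 libraries, Ifnb1 among them, and no other interferon gene but Ifnz had more than 3 counts in a library. Those 19 genes summed to 10 counts in vehicle library 1, 5 in panobinostat library 2 and 0 in the other libraries. Ifnz, at 0.253 to 0.474 CPM, belongs to a family of near-identical copies, so its count is uncertain. Of the 10 tested genes of the output list, 4 had a higher and 6 a lower estimate. Ccl5, a chemokine also made by T cells, stood at 1.10 ± 0.644 and 0.381 ± 0.0903 CPM, and Ifit1, an antiviral target, at 0.562 ± 0.218 and 0.365 ± 0.197 CPM (SD, n = 3). Rsad2, the antiviral enzyme viperin, gave 0.253, 0.401 and 0.783 CPM with vehicle, against 0.361, 0 and 0.148 CPM with panobinostat. The groups of these 3 genes overlapped. The other early targets were named after their values were seen. Ifit3 was also low, at 0.921 ± 0.614 CPM in vehicle and 0.795 ± 0.346 CPM in panobinostat libraries (SD, n = 3), with overlap. Ifit2 and Isg15 had higher levels. Ifit2, an antiviral target, gave 58.5, 34.3 and 32.1 CPM with vehicle, against 35.7, 46.8 and 42.4 CPM with panobinostat, and Isg15, a ubiquitin-like modifier, 7.39, 4.56 and 2.64 and then 3.89, 5.70 and 7.50 CPM. Both groups overlapped for each.

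Tnf, a cytokine induced by NF-kB and named after its values were seen, showed the largest fold between vehicle libraries among the 3 pathway genes called without vehicle library 1. It gave 17.1, 0.545 and 0.493 CPM with vehicle, against 8.42, 3.32 and 6.25 CPM with panobinostat. Its log2 fold change was -0.01 (SE 1.33, edgeR adjusted p 0.999), and 3.51 with an adjusted p of 0.0351 without vehicle library 1. Nlrx1, Irf5 and Tnf were the 3 of 85 pathway genes called in that setting, where 2.42% of all genes were called. Without both libraries numbered 1, 8 of the 85 were called, where 12% of all genes were. Those 8, named after their values were seen, were Nlrx1, Irf5, Tnf, the DNA sensor Aim2 (log2 fold change 1.07), the Toll-like receptor adaptor Tirap (1.77), the NF-kB subunit Nfkb1 (0.53) and the cytokine Il6 (3.34), all higher, and Rnaseh2c (-0.59), lower.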

How the data were processed

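The authors deposited 1 table of whole-number read counts per gene for 6 libraries, with Entrez identifiers. The build is mm10, and the tools named are HISAT2 2.1.0, cutadapt 2.1, Subread 2.0.0 with featureCounts, FastQC 0.11.6 and limma, per the submitters' processing notes. Neither the gene annotation nor whether strand was used in counting is given in the sources used here. Column names give the group and a number from 1 to 3, not tied to the labels' replicate numbers. Of 27179 identifiers, 25275 matched a symbol in the RefSeq table of GRCm38.p6. Exon lengths are from GENCODE M21.

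The test was that of edgeR 4.0.16 (R 4.3.3) with filterByExpr (minimum count 10), TMM factors and the robust quasi-likelihood F-test, two-sided, with Benjamini and Hochberg's adjustment over all genes and a threshold of 0.05. CPM values use TMM-scaled library sizes, and centred log2 CPM a prior count of 2. The standard error is the log2 fold change divided by the root of F. The procedure was tested on simulated data. The members and lists were chosen with earlier results of these data known. Pathway genes named were the 3 with the smallest p in each list and any past the threshold with all libraries, of which there were 0. Other pathway genes were named after their values were seen. Like patterns were sought for members of at least 1 CPM, and the 2 nearest are named. Alternatives were RLE factors, library size alone, DESeq2 1.42.0, a filter at a mean of 1 CPM, no filter, voom of limma 3.58.1, no robust option, a replicate block, each library left out, and both libraries numbered 1 left out.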

Additional observations from a re-analysis of the deposited data

How the results depend on the processing

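RLE factors, library size alone, no filter, a filter at a mean of 1 CPM, limma-voom and the fit without the robust option gave 0 calls among all genes, the members and the pathway genes, and DESeq2 gave 9 calls among all genes, 0 of them members. Under the filter at 1 CPM, Tlr7 was not tested. Leaving out each library in turn gave 0 to 1 members, 0 to 3 pathway genes and 0 to 324 of all genes called, and calls came without vehicle library 1. Leaving out both libraries numbered 1 gave 3 members, 8 pathway genes and 1590 of all genes called. No other same-numbered libraries were left out together, so these calls have no counterpart from other numbers. In every edgeR setting each gene's spread is moderated towards that of all genes. With 2 libraries in a group, fewer values inform a gene's own spread. Of 149 alternative log2 fold changes of members, 137 kept their direction and side of the threshold, 4 passed it and 8 changed sign. With each library left out in turn the log2 fold change ran from -0.83 (without panobinostat library 1) to 0.80 for Sting1, from -0.13 (without vehicle library 3) to 1.52 (without vehicle library 1) for Rigi, from -0.077 (without vehicle library 3) to 0.89 (without vehicle library 1) for Dhx58, from -0.24 to 0.0045 (without panobinostat library 2) for Tbk1, and from -0.090 (without panobinostat library 3) to 0.27 for Ikbke. Without vehicle library 2 it was -0.099 for Rigi and -0.069 for Ikbke, and without both libraries numbered 1 it was -0.60 for Sting1. By limma-voom it was 0.76 for Rigi. The cause was not tested.

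With the column number as a replicate block, 0 members, 0 pathway genes and 0 of all genes were called, as without it, although the log2 fold change of Rigi was 0.76 and that of Sting1 0.01. The deviations of same-numbered libraries from their group means correlated at -0.14, 0.07 and -0.20 over genes for numbers 1, 2 and 3. Not every library correlated best with its own number. Deviations within a group of 3 depend on each other, and vehicle library 1 stood apart, so this cannot decide whether same-numbered libraries were paired. Counts limit Tlr7 and the interferon genes, which lie near the level of 3 counts that a count of 0 allows.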

Other observations

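Ribonuclease H2 removes ribonucleotides from DNA and so limits a ligand of cGAS. The genes of its subunits were low in vehicle library 1, where Rigi was high, and a link between them was not tested. Rnaseh2c gave 22.9, 54.6 and 47.7 CPM with vehicle, against 32.7, 37.7 and 30.8 CPM with panobinostat. Rnaseh2b stood at 40.4, 79.8 and 70.7 and then 55.9, 61.5 and 52.8 CPM, and Rnaseh2a at 67.6, 111.5 and 101.5 and then 83.0, 87.8 and 84.1 CPM. For all 3 genes vehicle library 1 was the lowest, vehicle libraries 2 and 3 the highest, and the panobinostat libraries lay between. Their log2 fold changes were -0.31, -0.17 and -0.14 for Rnaseh2c, Rnaseh2b and Rnaseh2a, each with an edgeR adjusted p of 0.998. Without both libraries numbered 1, Rnaseh2c was called lower, at -0.59 with an edgeR adjusted p of 0.0380, where 4.65% of all genes were called lower. These genes were chosen after their values were seen.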
